A study of Homo sapiens with 8 samples.

Results

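The clustered protocadherin genes occupy 1 stretch of human chromosome 5, and LSD1 occupancy was examined between 140160000 and 140894999 in the coordinates of hg19, a window of 735 kb chosen to hold the PCDHA, PCDHB and PCDHG clusters. Its members were all LSD1 summits deposited inside these bounds, 21 of the 201526 summits in 4 lists. The lists came from CUT&RUN, in which MNase tethered to an antibody cuts the chromatin where a protein sits, here the histone H3K4 demethylase LSD1. There were 2 libraries from parental MDA-MB-231 cells, a human triple-negative breast cancer line, and 2 from RCOR2-KO1 cells, the same line with RCOR2 knocked out by CRISPR/Cas9. The methods say that several knockout clones were mixed, but after describing MC38 cells, so whether this holds for MDA-MB-231 cells is not clear. Both genotypes were kept in the same serum-containing medium, and no treatment is named for either of them. The comparison of the genotypes asked whether LSD1 occupancy at this locus differed without RCOR2, one of the CoREST scaffolds that tie LSD1 to HDAC1 and HDAC2. The lists hold no readout of RCOR2 itself, so the knockout could not be checked in them.

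The summit lists held 47354 and 54467 entries in parental replicates 1 and 2 and 49586 and 50119 in RCOR2-KO1 replicates 1 and 2. Each entry is a single base, the highest point of a peak called against rabbit IgG, with a −log10 value of the peak caller. Sequencing depth is unknown, and a list contains only what passed the caller's threshold, so a missing summit does not show that LSD1 was absent. Because the −log10 value depends on depth, it was turned into a percentile, the share of a library's own list at or below it, so that 100 marks the strongest. To compare lists, neighbouring summits at most 500 bp apart were joined into a region.

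Clustered protocadherins are cell-surface adhesion proteins of the cadherin family, best known from neurons, in which each cell expresses a small choice of them and so gains an identity that lets its own branches recognise each other. Each variable first exon of the PCDHA and PCDHG genes has a promoter of its own and is spliced to exons shared by its cluster, while PCDHB genes stand alone. In cells that are not neurons the REST repressor, which works with CoREST, LSD1 and histone deacetylases, is known to act on an enhancer of the PCDHA cluster. The RefSeq annotation (GRCh38.p14) lists 53 protein-coding protocadherin genes here, 15 PCDHA, 16 PCDHB and 22 PCDHG genes in this order along the chromosome. ZMAT2 precedes PCDHA1 and DIAPH1 follows PCDHGC5. SLC25A2, which encodes a mitochondrial ornithine carrier, and TAF7, which encodes a subunit of the general transcription factor TFIID, lie between PCDHB15 and PCDHGA1. This annotation is of another build than the summits, so it was used for names and order, and no summit below is tied to a gene.

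The promoters of these genes are shown because 53 of them fill a window in which all lists together held 10 LSD1 regions. RefSeq promoter sequences (GRCh38.p14, forward strand, from 250 bases before to 50 after the start) were at hand for 47 of the 53 genes, 13 PCDHA, 14 PCDHB and 20 PCDHG genes. Most of them carried the letters CGCT. These are the core of the conserved element of protocadherin promoters, which CTCF is known to bind in the PCDHA cluster. A match of these letters alone does not show that the element is present. On the forward strand and within 100 bases before the start, CGCT was found in 44 of 47 protocadherin promoters (93.6%), against 28.7% of the 27305 promoters in the table. The median distance of its first base to the start was 59 bases, against 57 over all promoters of the table with a match. This distance therefore does not set the protocadherin promoters apart. Where a promoter had several matches, the one farthest from the start was taken. With both strands (CGCT or AGCG) and all 300 bases, the shares were 97.9% and 69.4%. The promoters without CGCT in the narrower search were those of PCDHA9, PCDHB8 and PCDHGB2. The first, middle and last gene of each cluster, among those with a match, are given with 13 bases on each side and CGCT in capitals:
PCDHA1: ggccacatgatgtCGCTgtacaccacaaag
PCDHA8: agccacatgatgtCGCTgtctaccaagaag
PCDHAC2: agcagtccgggttCGCTgtccgccacttcg
PCDHB1: tggggagttgagtCGCTcaatgcaaatttt
PCDHB16: gaacgcgtggtggCGCTgcaggttaagatg
PCDHB15: caacgcatggtggCGCTgcaggctaaggct
PCDHGA1: ggactgtgggcgcCGCTgttcactaatctg
PCDHGB4: tgactctgggcgcCGCTgttggccaaagtg
PCDHGC4: tgagcccgggagcCGCTgtctgccaatcgg
The letters just before CGCT were mostly shared within the PCDHA and PCDHB clusters. It was preceded by gatgt in 9 of the 12 PCDHA promoters with a match and by ggtgg in 12 of the 13 PCDHB promoters. In the PCDHG cluster the most frequent letters, ggcgc, stood in 6 of 19. Among the printed examples, PCDHAC2, PCDHB1 and PCDHGC4 had other letters before CGCT than the most frequent ones of their cluster.

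The same promoters were poor in CG. The median number of CG dinucleotides in 300 bases was 7 in protocadherin promoters, against 14 over all promoters of the table, and the median GC content was 39.7% against 58.3%. The medians of the clusters were 7 for PCDHA, 7.5 for PCDHB and 7 for PCDHG. The range ran from 2 in PCDHGA4 to 27 in PCDHAC1, and both ends are shown with CG in capitals:
PCDHGA4: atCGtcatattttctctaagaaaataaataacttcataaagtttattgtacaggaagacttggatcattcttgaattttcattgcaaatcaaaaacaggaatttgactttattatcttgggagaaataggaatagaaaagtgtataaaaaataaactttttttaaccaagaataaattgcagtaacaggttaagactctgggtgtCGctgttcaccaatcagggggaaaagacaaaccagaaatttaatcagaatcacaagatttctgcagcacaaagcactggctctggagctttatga
PCDHAC1: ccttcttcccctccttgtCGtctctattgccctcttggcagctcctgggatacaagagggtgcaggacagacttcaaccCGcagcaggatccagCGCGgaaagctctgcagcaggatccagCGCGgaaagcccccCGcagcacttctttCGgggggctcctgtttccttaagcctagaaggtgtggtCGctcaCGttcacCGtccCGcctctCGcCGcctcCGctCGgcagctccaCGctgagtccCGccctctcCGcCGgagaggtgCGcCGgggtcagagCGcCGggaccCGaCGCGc
The highest numbers belonged to C-type genes, with 27 in PCDHAC1, 23 in PCDHGC4, 18 in PCDHGC3 and 15 in PCDHAC2, while PCDHGB6 had 16. The promoter of TAF7, which lies among these genes but is not a protocadherin, had 27 CG and a GC content of 58%. GGACAG, which belongs to the REST recognition sequence, was searched on both strands and found in 6 of the 47 promoters (12.8%), against 20.5% of all promoters in the table. These were the promoters of PCDHA2, PCDHAC1, PCDHAC2, PCDHB10, PCDHGA1 and PCDHGB6. So short a match is a description of the letters and not a site. The shares were compared without regard to the lower GC content of these promoters, and the enhancer of the PCDHA cluster was not searched.

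**Figure D1:**
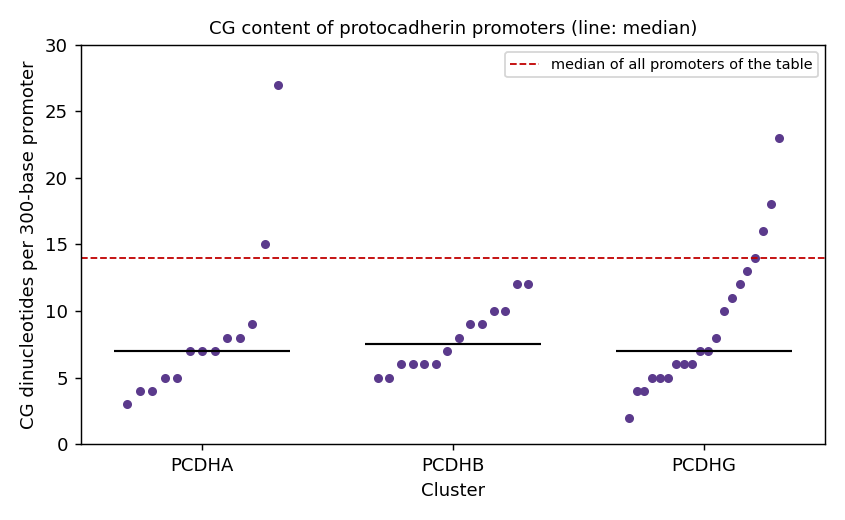
CG dinucleotides in the 300-base RefSeq promoter of each protocadherin gene (points) by cluster, with the median of the cluster as a black line and the median of all promoters of the table, 14, as a dashed line. No PCDHB promoter reaches the dashed line, and the few points above it are in the PCDHA and PCDHG clusters.

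The protocadherin window held few LSD1 summits, between flanks that were dense in them. So low a count was not rare, since 32.9% of equal windows over the genome had as few or fewer. Parental replicates 1 and 2 had 4 and 8 summits there, and RCOR2-KO1 replicates 1 and 2 had 5 and 4. The equal window before it, from 139425000 to 140159999, held 33, 40, 35 and 34 summits in the same order of libraries. The equal window after it, from 140895000 to 141629999, held 36, 39, 35 and 32. In every library the protocadherin window therefore lay far below both neighbours, and the flanks held on average 8.63, 4.94, 7 and 8.25 times as many summits. The density was 0.714 ± 0.258 summits per 100 kb in the window, 4.83 ± 0.423 in the flank before and 4.83 ± 0.393 in the flank after (mean ± SD, n = 4 libraries). The difference of window and flanks was -4.12 summits per 100 kb, in the same direction in 4 of 4 libraries (two-sided exact paired permutation over libraries, p = 0.125, the minimum with 4 libraries).

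**Figure D2:**
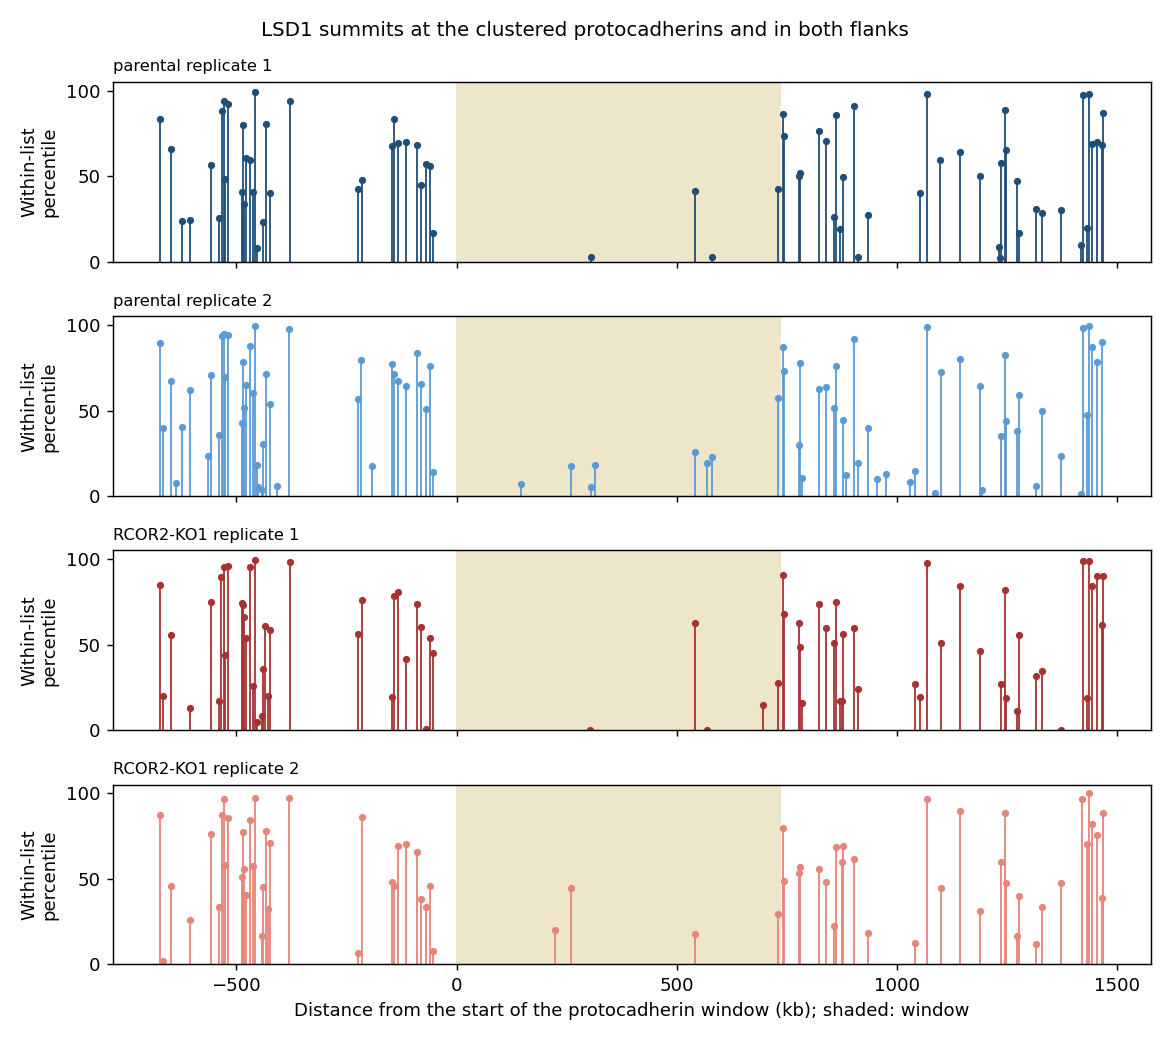
LSD1 summits of each library over the protocadherin window (shaded) and the equal windows on both sides. The x axis is the distance from the start of the window in kb, and the height of each line is the within-list percentile of the summit. The shaded part holds 4 to 8 summits per library, against 32 to 40 in each flank, and most of its lines are short.

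The summits that were called in the window also ranked low. Their mean percentile was 22.6 and 21.7 in parental replicates 1 and 2 and 21.0 and 27.7 in RCOR2-KO1 replicates 1 and 2. In the flank before, the mean percentiles lay between 55.7 and 57.3, and in the flank after between 49.95 and 56.6, so no library's window value came near its flanks. Averaged over libraries, the difference of window and flanks was -31.7 percentile points (lower in 4 of 4 libraries, two-sided exact paired permutation, p = 0.125, again the minimum). It was -16.4 points with the window widened by 20 kb at each end, which takes in the first strong regions of the flank after. Of the 21 summits, 19 were below the 50th percentile and 13 below the 25th, whereas 119 and 58 of the 284 flank summits were. The only summits above the 50th percentile were at 62.4 in RCOR2-KO1 replicate 1 and 57.2 in parental replicate 2. The highest −log10 value in the window was 25.4, in a list that reached 313.

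Few summits in 735 kb were not rare across the genome, and the contrast with the neighbours was less common. Over 3971 windows of the same size on chromosomes 1 to 22 and X, the median was 10.3 summits per list, and the quartiles were 3.50 and 19.0. The protocadherin window had 5.25 on average, and 32.9% of windows had as few or fewer, windows without any summit included. Of the 3601 windows with at least 1 summit, 935 had as few or fewer. Its flanks had 35.5 each, a number that 4.38% of windows reached. Fewer summits than each neighbour in every list, as at the protocadherins, was found in 21.6% of the 3075 windows whose neighbours had summits in every list. A ratio to the neighbours as low as that of the protocadherins, 0.148, was found in 5.98%. A mean percentile below that of each neighbour in every list was found in 11.4% of 2924 windows. Sparse windows ranked lower in general. The 935 windows with as few summits as the protocadherin window, but at least 1, had a median mean percentile of 36.3, with quartiles of 23.8 and 46.9, and the protocadherin window stood at 23.2.

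**Figure D3:**
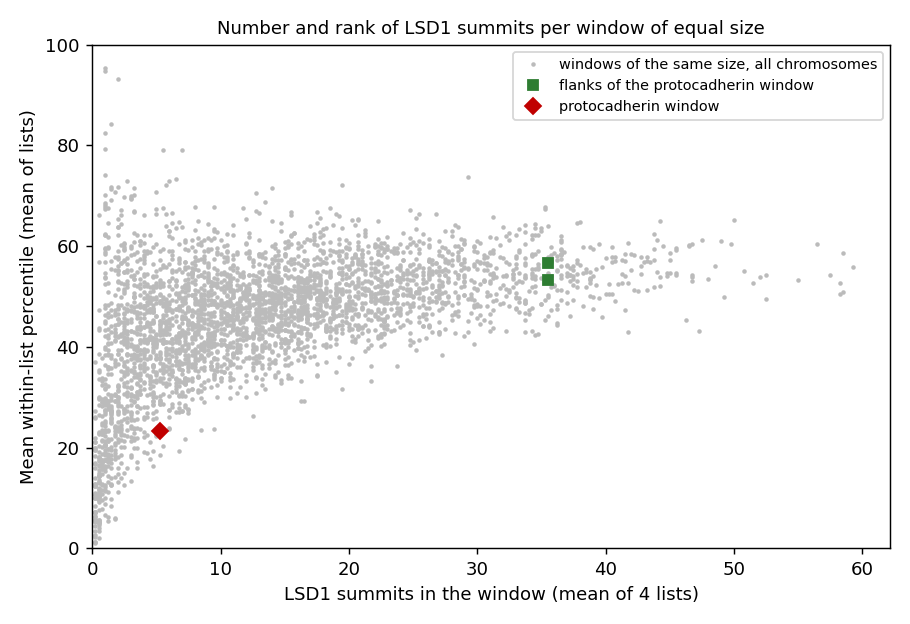
Mean number of LSD1 summits per list (x axis) and mean within-list percentile of these summits (y axis) for windows of the same size over all chromosomes (grey), the protocadherin window (red diamond, 5.25 summits, percentile 23.2) and its flanks (green squares, 35.5 summits each). The red diamond lies low, near the lower quartile of 23.8 of the windows with as few summits, and the flanks lie within the bulk of the dense windows.

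Along the window the counts were higher towards its end, which is given as a description without a test. The first 245 kb, up to 140404999, held 0, 1, 0 and 1 summits in parental replicates 1 and 2 and RCOR2-KO1 replicates 1 and 2. The middle 245 kb held 1, 3, 1 and 1, and the last 245 kb, from 140650000, held 3, 4, 4 and 2. In parental replicate 1 and RCOR2-KO1 replicate 1 the first part was thus without a summit. The density was 0.204 ± 0.236, 0.612 ± 0.408 and 1.33 ± 0.391 summits per 100 kb in the first, middle and last part (mean ± SD, n = 4). Even the last part, with the highest counts, was below both flanks in every library. The clusters follow each other along the window as PCDHA, PCDHB and PCDHG, but the borders of the parts were set by length and are not those of the clusters.

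**Figure D4:**
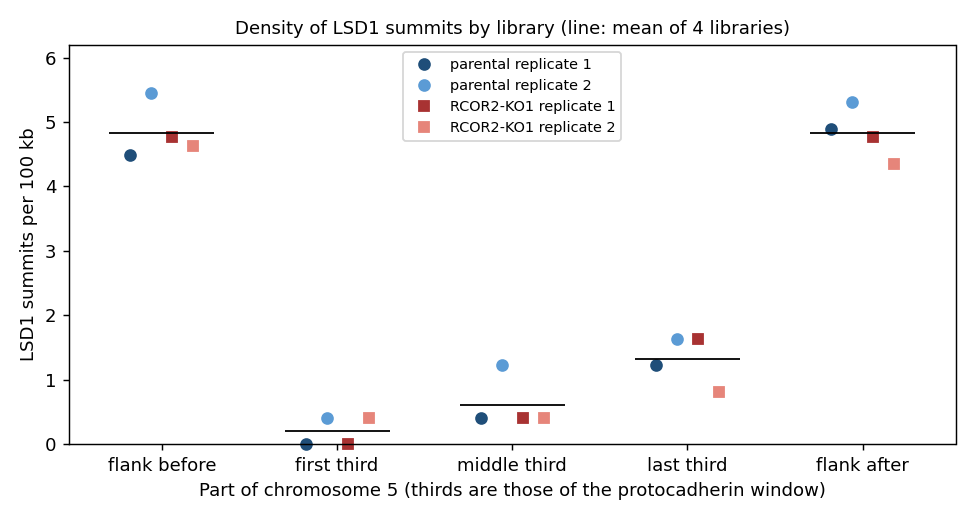
LSD1 summits per 100 kb in the flank before, the first, middle and last 245 kb of the protocadherin window and the flank after, for each library (circles parental, squares RCOR2-KO1) with the mean of the 4 libraries as a line. All points of the window lie below 2 and all points of the flanks above 4.

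Long stretches of the window had no summit in any of the 4 lists. The longest ran for 226159 bp between the summits at 140474274 and 140700433. The next ran for 199987 bp from 140106262, before the window, to 140306249, and so took in the start of the window. The longest such stretch within the flanks was 156219 bp. Within single libraries the longest stretch of the window without a summit was 304 and 226 kb in parental replicates 1 and 2 and 304 and 280 kb in RCOR2-KO1 replicates 1 and 2. Here the window borders counted as ends. Both stretches of 304 kb ran from the start of the window to the first summit and were cut at that border.

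The 21 summits formed 10 regions, of which 2 were found in all 4 lists. Over the genome 52.6% of 68148 regions were in all 4 lists, and in the flanks 59 of 86 were. A further 4 of the 10 regions were in 1 list only (21.7% over the genome, and 13 of 86 in the flanks), 3 were in 2 or 3 lists of both genotypes, 1 was in both parental lists and no RCOR2-KO1 list, and none was in both RCOR2-KO1 lists alone. Over the genome, 4.24% of regions were in both parental lists only and 3.62% in both RCOR2-KO1 lists only. A further 12142 of the 68148 were in 2 or 3 lists of both genotypes. Of the 86 flank regions, 2 were in both parental lists only, 2 in both RCOR2-KO1 lists only and 10 in 2 or 3 lists of both genotypes.

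The first reproducible region lay between 140700433 and 140700589, 540 kb into the window. It could not be tied to a protocadherin gene, TAF7 or SLC25A2. Its percentile was 41.5 in parental replicate 1, 25.9 in parental replicate 2, 62.4 in RCOR2-KO1 replicate 1 and 17.4 in RCOR2-KO1 replicate 2, with −log10 values of 13.9, 8.79, 25.4 and 6.58. The RCOR2-KO1 libraries took both the highest and the lowest place, so the genotypes overlapped at 33.7 ± 11.0 in parental and 39.9 ± 31.8 in RCOR2-KO1 cells (mean ± SD, n = 2 each).

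The other reproducible region was found between 140888823 and 140888906, within 6177 bp of the end of the window. Its percentile was 42.8 and 57.2 in parental replicates 1 and 2 and 27.4 and 29.1 in RCOR2-KO1 replicates 1 and 2, with −log10 values of 14.3, 23.2, 9.20 and 9.08. Both RCOR2-KO1 libraries were below both parental libraries here, at 28.3 ± 1.19 against 50.03 ± 10.2 (mean ± SD, n = 2 each), which differ by -21.8 points. No test was run for a single region. Such an order was found in 22.4% of the 35861 regions shared by all lists over the genome, and the reverse order in 19.6%. In the flanks, 15 of 59 shared regions had it and 9 had the reverse, and the median difference of RCOR2-KO1 and parental cells was -3.13 percentile points there and -0.578 over the genome. With 2 shared regions in the window, 1 in this order cannot be set apart from these shares.

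The other 8 regions were weak. Between 140463702 and 140464208, a region was found at the 3.17th and 5.53th percentile in parental replicates 1 and 2 and at the 0.0323th in RCOR2-KO1 replicate 1, among the weakest entries of each list. The region in both parental lists only, between 140739570 and 140739615, was at the 2.76th percentile in replicate 1 and the 22.9th in replicate 2. Both of these thus stood near the bottom of at least 1 list.

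A region from 140420563 to 140420818 was at percentile 17.8 in parental replicate 2 and 44.3 in RCOR2-KO1 replicate 2, which made it the strongest of these 8. A region from 140729557 to 140729668 was at 19.5 in parental replicate 2 and 0.177 in RCOR2-KO1 replicate 1. Each was thus in 1 library of each genotype. The summits found in a single list were at 140306249 and 140474274 in parental replicate 2, at percentiles of 6.86 and 18.0, at 140855478 in RCOR2-KO1 replicate 1, at 14.8, and at 140383298 in RCOR2-KO1 replicate 2, at 19.9. None of these single summits reached the 20th percentile of its list.

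**Figure D5:**
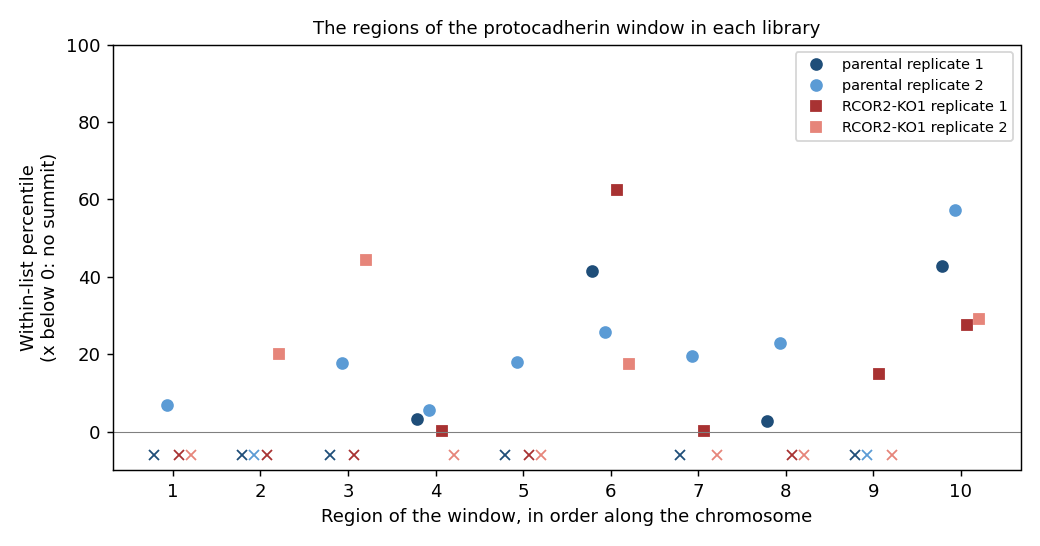
Within-list percentile of the 10 regions of the protocadherin window, numbered along the chromosome, in the 2 parental (circles) and 2 RCOR2-KO1 (squares) libraries, with a cross below 0 where a library had no summit. Regions 6 and 10 are the ones with a value in all 4 libraries, and only at region 10 do both RCOR2-KO1 values lie below both parental values.

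The ranges of the genotypes overlapped in the number and in the mean rank of summits in the window. There were 6 ± 2.83 summits in parental and 4.50 ± 0.707 in RCOR2-KO1 cells (mean ± SD, n = 2 each), a difference of -1.50 (two-sided exact permutation over libraries, p = 1). Parental replicate 2, with the longest list, held 8 of the 21, and without it the difference was 0.500, against -3.50 without parental replicate 1. The mean percentile was 22.1 ± 0.604 in parental and 24.3 ± 4.76 in RCOR2-KO1 cells, which differ by 2.20 (two-sided exact permutation, p = 1). This difference was -1.17 without RCOR2-KO1 replicate 2 and 5.56 without RCOR2-KO1 replicate 1. It was 8.41 when every list kept as many top summits as the smallest list holds and 7.07 with the window narrowed by 20 kb at each end, in both cases with both RCOR2-KO1 libraries above both parental libraries (two-sided exact permutation, p = 0.333, the minimum). Over both regions found in all 4 lists the mean difference was -7.75 points (two-sided exact permutation, p = 1). It was -18.6 without RCOR2-KO1 replicate 1, and 0.612 without RCOR2-KO1 replicate 2, where the remaining lists shared 3 regions. With 2 libraries per genotype no p under 0.333 is possible, so these values do not show that the genotypes were alike.

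Shared LSD1 regions were found on both sides of the sparse stretch. Before it, the last region lay between 140105665 and 140106262, 53738 bp outside the window, at 16.8 and 13.8 in parental and 45.0 and 7.66 in RCOR2-KO1 replicates 1 and 2. The region before that, from 140098755 to 140098780, was at 56.1, 75.9, 53.9 and 45.8. After the window, a region from 140900906 to 140901019, 5906 bp beyond its end, was at 86.7, 87.0, 90.9 and 79.4, above the last region of the window in every library. The next, from 140904350 to 140904449, was at 73.8, 73.1, 67.9 and 48.4. All of these were found in the 4 lists. After the window the change from sparse to strong thus fell close to the chosen border, and before the window the sparse stretch began outside it.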

How the data were processed

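LSD1 CUT&RUN was measured in 2 parental and 2 RCOR2-KO1 libraries, grouped by their titles; the 4 IgG libraries served the authors as input and have no list here. Peaks were called per library by the authors, and the deposited values are the −log10 of a p or q value at each summit, per the files. The submitters' processing notes name FastQC 0.11.2, Bowtie2 2.3.3.1, Picard, MACS2 2.1.0 and hg19. The threshold, and how reads that fit several places were treated, are not given in the sources used here. This matters because clustered protocadherins are paralogues, and its part in the values was not tested. The lowest −log10 value was 1.31 to 1.40 per list.

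Summits were ranked within each list, joined at up to 500 bp and counted in the window, in equal flanks and in a grid of windows of the same size on chromosomes 1 to 22 and X, with Python 3.11.15, pandas 2.3.3 and numpy 2.4.6. A region's percentile is the highest of its summits in that library. Genotypes were compared by exact permutation over libraries, and window and flanks by exact paired permutation. The labels do not say that replicates came from separate cultures, so p-values measure only the spread between these libraries. Joining was checked on simulated lists of regions far apart, with summits moved by less than the joining distance. This setting does not cover close neighbours or regions joined through a chain of summits. With 10 regions in all, every region was described. The first promoter of a gene in the RefSeq table was used. Alternatives were to keep the upper 50% of summits, to cut all lists to the shortest, and to use moved window ends, percentiles within chromosome 5, other joining distances, wider flanks, medians, the replicate block and each library left out. The window, lists and tests were chosen with earlier results of these data known.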

Additional observations from a re-analysis of the deposited data

How the results depend on the processing

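The lower density of the window (-4.12 summits per 100 kb) lay between -4.38 and -2.74 under the alternatives that kept all libraries and between -4.17 and -4.06 with each library left out. The lower percentile (-31.7) lay between -37.3 and -16.4, and between -32.6 and -31.1 with each library left out. Both were negative under every alternative that gave a value.

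In the upper 50% of each list, 2 of the 21 summits remain by construction. The difference of summits between genotypes was then 0, no region was in all 4 lists (0), in both parental lists only (0) or with RCOR2-KO1 below (0), the mean summits per list were 0, 0 and 0.500 in the first, middle and last part, and no percentile comparison could be computed. With lists cut to the shortest, the first part held 0.250 summits per list instead of 0.500. Widening the window by 20 kb at each end took in both regions just past its end, giving 4 regions in all lists, 2 with RCOR2-KO1 below, 5.25 summits per list in the last part and a median percentile of 42.8 there, against 25.9 within the window as given. Narrowing it by 20 kb lost the last region, giving 1 region in all lists, 0 with RCOR2-KO1 below and a difference over shared regions of 6.26 instead of -7.75. Joining at 250 bp gave 2 regions in both parental lists only. With medians, the percentile difference between genotypes was -0.901 instead of 2.20, and it was 8.41 with lists cut to the shortest, 7.07 with the narrower window, 1.13 with the wider one and 1.59 with percentiles within chromosome 5.

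With each library left out, the difference in summits ranged from -3.50 to 0.500, that in percentile from -1.17 to 5.56 and that over shared regions from -18.6 to 0.612, the last with 3 regions shared by the remaining lists. Regions in both parental lists only ranged from 1 to 3, in both RCOR2-KO1 lists only from 0 to 1, with RCOR2-KO1 above from 0 to 1 and below from 1 to 2; a lone library then represents its genotype. In the fit with the replicate block, the differences were -1.50, 2.20 and -7.75, equal to the unblocked values by construction, with a smallest p of 0.5 for 2 pairs. The ranks showed no shared effect of the replicate number (correlation of replicate differences between genotypes 0.00722 over 35861 shared regions). This does not tell whether libraries of the same number were prepared together. Depth is unknown, so small changes of rank cannot be read, and the cause of these shifts was not tested otherwise.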
